A study of Rattus norvegicus with 30 samples.

Results

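The proteasome is the barrel-shaped protease that degrades ubiquitin-tagged proteins, and the genes of its parts were followed here across liver RNA of rats and of mice carrying rat hepatocytes. Members were all genes measured by the array whose rat symbol starts with Psma, Psmb, Psmc, Psmd or Psme followed by a digit. A gene with several probes was read from its brightest probe, by the mean of the 16 SD and CAR KO arrays. The rule found 43 of the 26912 genes and unnamed transcripts on the array. Of these, 41 encode proteasome subunits, chaperones of its regulatory particle or activators, and they are called the proteasome genes below. Psmc3ip and Psme3ip1 encode proteins that are not proteasome parts and were counted apart. Psmd11, Psmb11, Psmb6l1, Psmb3l1 and Psmb3l2 had no matched probe and were not analysed here.

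The core particle, 20S, is a stack of alpha rings that gate the entrance and beta rings that hold the active sites. Psmb5, Psmb6 and Psmb7 encode the catalytic beta subunits of ordinary cells, and interferon-gamma makes cells put Psmb8, Psmb9 and Psmb10 in their places, which gives the immunoproteasome that favours peptides for MHC class I. The 19S regulatory particle recognises ubiquitin chains, removes them and unfolds the substrate with a ring of ATPases, and the activators Psme1 to Psme4 open the core without ubiquitin. In liver, the proteasome also takes part in the turnover of cytochrome P450 enzymes, and phenobarbital, a barbiturate that activates the constitutive androstane receptor (CAR), induces such enzymes and enlarges the liver.

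Each of 30 Agilent 1-colour rat arrays held liver RNA of 1 male animal. Crl:CD(SD) rats, an outbred stock written SD below, gave 4 animals on control diet (0 ppm) and 4 on diet with 1000 ppm phenobarbital (PB). CAR KO rats, with the CAR gene knocked out by a design the labels do not describe, gave 4 and 4. Chimeric mice with rat hepatocytes gave 7 and 7, and diets were fed for 7 days in every group. The host strain, the share of rat cells and the source of the hepatocytes are not given in the labels, and the chimeric livers also hold mouse cells whose RNA may bind some rat probes. In bulk liver, fewer cells of a type and less RNA per cell cannot be told apart.

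A level below is log2 of an array's processed probe signal minus the 75th percentile of that array, so a difference of 1 is a doubling relative to the rest of the array. Levels of different genes come from different probes and are not compared. The 75th percentile itself lay between 413.82 and 568.28 signal units on the rat arrays and between 197.48 and 317.92 on the chimeric ones. Hepatocyte markers, 12 in all, were well above background in every group, with a summed linear level of 2730 to 4035. Of 13 lymphocyte markers, 10 were well above background on no chimeric control array and 9 on no chimeric PB array, and their summed level was 0.396 to 0.507 and 0.194 to 0.303 there, against 1.30 to 2.43 in the rats. Of 13 macrophage markers, 3 were above background on no chimeric control array (Marco, C1qc and Aif1), and the summed level was 39.9 to 67.8 in chimeric livers and 63.7 to 132 in the rats. The transcript of CAR itself, Nr1i3, stood at 1.17 ± 0.49 (SD, n = 4) in SD controls and 1.12 ± 0.30 (SD, n = 4) in CAR KO controls. The labels do not say which stretch of Nr1i3 was altered, so the level of this probe does not check them.

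Arrays of 1 diet shared a row of a slide, all SD arrays shared a slide and all CAR KO arrays shared another, so slide and rat model, and slide row and diet, cannot be told apart in the rats. The 7 chimeric controls and chimeric PB 1 lay on 1 slide, and PB 2 to PB 7 lay on another. Among the chimeric arrays, control 2, control 4 and PB 4 stood apart from the others of their groups along the leading component of the within-group spread over all genes, which held 45.9% of it. Their scores were -53.1, -62.3 and -61.2, against -8.84 to 40.0 on the other 11 arrays, and their 75th percentiles, 235.16, 215.79 and 197.48, were the lowest of their groups, although PB 7 at 221.24 lay below control 2. On these 3 arrays the probes of Psmb1, Psmb6, Psmb8, Psmc3, Psmc4, Psmd3, Psmd8 and Psmd13 were lower than on every other array of the same group. Psmd13, a non-ATPase subunit of 19S, spanned 3.12 log2 units over the 7 chimeric controls and 0.65 over the 5 controls without control 2 and control 4. Chimeric results are therefore given with and without these 3 arrays.

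Promoters are shown for 4 of the genes, a pair from those called with PB in chimeric livers, Psmb5 and Psmd9, and a pair of immunoproteasome genes, Psmb8 and Psmb10, which were called in none of the 3 PB comparisons. Each window runs from 250 bases before to 50 bases after the annotated start, taken from RefSeq on build GRCr8, and 37 of the 41 genes had one. The capitals in Psmb5 (chr15:32047330-32047629, minus strand) and Psmd9 (chr12:39018215-39018514, minus strand) mark matches, on either strand, to TGACNNNGC, the core of the antioxidant response element. The capitals in Psmb10 (chr19:50743243-50743542, minus strand) and Psmb8 (chr20:4656982-4657281, minus strand) mark matches to GAAANNGAA, the core of the interferon-stimulated response element, and 2 of the 3 matches in Psmb10 overlap.
Psmb5: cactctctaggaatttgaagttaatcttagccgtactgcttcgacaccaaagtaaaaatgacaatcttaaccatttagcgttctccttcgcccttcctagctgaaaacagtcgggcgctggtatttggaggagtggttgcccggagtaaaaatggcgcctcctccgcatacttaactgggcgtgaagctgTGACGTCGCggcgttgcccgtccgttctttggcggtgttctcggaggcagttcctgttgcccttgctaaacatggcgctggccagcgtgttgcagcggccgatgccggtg
Psmd9: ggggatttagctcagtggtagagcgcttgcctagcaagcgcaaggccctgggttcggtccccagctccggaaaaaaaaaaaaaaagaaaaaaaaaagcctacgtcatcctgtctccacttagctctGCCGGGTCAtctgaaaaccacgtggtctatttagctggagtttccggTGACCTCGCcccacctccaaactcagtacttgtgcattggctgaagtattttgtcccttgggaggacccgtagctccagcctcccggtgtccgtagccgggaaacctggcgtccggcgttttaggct
Psmb10: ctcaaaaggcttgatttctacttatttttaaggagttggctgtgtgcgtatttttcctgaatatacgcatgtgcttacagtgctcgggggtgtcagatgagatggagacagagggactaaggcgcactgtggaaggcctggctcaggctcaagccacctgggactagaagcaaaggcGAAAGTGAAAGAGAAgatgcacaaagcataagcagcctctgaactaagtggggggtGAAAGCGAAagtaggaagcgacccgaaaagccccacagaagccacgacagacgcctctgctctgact
Psmb8: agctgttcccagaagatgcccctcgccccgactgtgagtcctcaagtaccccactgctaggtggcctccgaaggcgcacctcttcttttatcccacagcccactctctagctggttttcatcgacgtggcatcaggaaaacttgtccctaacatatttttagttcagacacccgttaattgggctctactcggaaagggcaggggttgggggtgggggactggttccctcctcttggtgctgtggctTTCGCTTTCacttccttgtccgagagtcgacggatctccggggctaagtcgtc
Searched in the same windows of 27457 genes, 1 per gene, TGACNNNGC occurred in 12.2% of all promoters and in 8 of the 37 proteasome promoters (21.6%), namely Psma3, Psmb2, Psmb5, Psmb6, Psmd1, Psmd3, Psmd9 and Psme4. GAAANNGAA occurred in 9.53% of all and in 7 of 37 (18.9%), namely Psma4, Psmb2, Psmb3, Psmb8, Psmb10, Psmd7 and Psme2. Psmb9 and Psme1 were not among them. CCAAT, a common promoter box, occurred in 37.6% of all and in 19 of 37 (51.4%). TTCNNNGAA, the site bound by STAT factors, occurred in 8.68% of all and in 4 of 37 (10.8%), namely Psmb8, Psmc6, Psmd3 and Psmd7. In the chimeric response to PB, TGACNNNGC was in 5 of 25 promoters of called genes and 3 of 11 of genes not called. GAAANNGAA was in 3 of 25 and 4 of 11. In the SD response, TGACNNNGC was in 2 of 5 and 6 of 32, and GAAANNGAA in 0 of 5 and 7 of 32. The 4 promoters shown therefore do not stand for a link between motif and call, which was not tested. These are matches of letters and were not tested for binding.

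In SD rats the proteasome genes were slightly higher after 7 days of PB. The median over the 41 genes was a log2 difference of 0.20, or 1.15-fold, while the median over all 17009 genes tested was -0.02. By limma with Benjamini-Hochberg adjustment, 7 of 41 (17.1%) rose and 0 fell, where 2.5% of all genes rose and 1.8% fell. The difference was above 0 for 39 of 41, and it lay between 0.15 and 0.26 for the middle of the distribution, from the lower to the upper quartile. For 16 of 41 every PB array was above every control array, which held for 5.9% of all genes. The 7 that rose were Psma1, Psma6 and Psma7 of the alpha ring, Psmd1, Psmd8 and Psmd14 of the 19S particle, and Psmd9, a chaperone of 19S assembly.

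**Figure D1:**
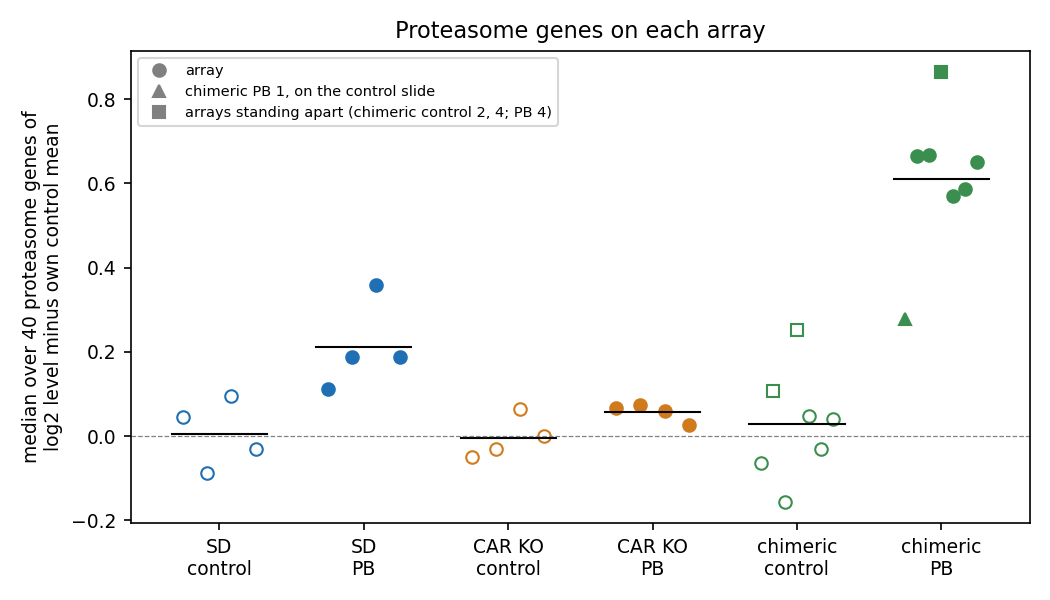
Each point is 1 array, and its height is the median over 40 proteasome genes of the log2 level minus the mean of that gene on the control arrays of the same kind of animal, with open symbols for control diet, filled symbols for PB and lines for group means. SD PB arrays sit at 0.11 to 0.36, CAR KO PB arrays at 0.03 to 0.07, and chimeric PB arrays at 0.57 to 0.86 except PB 1 on the control slide at 0.28.

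Psmd9 had the smallest adjusted p among the proteasome genes of SD rats. Its level was 3.59, 3.79, 3.64 and 3.67 in the 4 SD controls and 4.08, 4.01, 4.27 and 4.16 in the 4 SD PB rats. All PB rats lay above all controls, and the log2 difference was 0.46 ± 0.08 (SE; 1.37-fold, adjusted p = 0.0041). A second probe of Psmd9 gave 0.39 ± 0.08 (SE, adjusted p = 0.012).

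Psmd14, the deubiquitinase that cuts ubiquitin chains off substrates at the 19S lid, changed by the most. It stood at 0.22, -0.11, 0.23 and -0.01 in SD controls and at 0.47, 0.45, 0.90 and 0.57 with PB, the third PB rat being the highest. The difference was 0.51 ± 0.11 (SE; 1.43-fold, adjusted p = 0.018). Psma1, an alpha-ring subunit, went from 3.11, 2.91, 3.14 and 2.91 to 3.26, 3.39, 3.54 and 3.32, with no overlap between the diets (0.36 ± 0.08, SE; adjusted p = 0.019).

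Psmd8, a lid subunit, measured 2.61, 2.45, 2.66 and 2.58 on control diet and 2.70, 2.91, 3.05 and 2.84 with PB (difference 0.30 ± 0.07, SE; adjusted p = 0.025). Psma7 measured 3.99, 3.97, 4.21 and 4.01 on control diet and 4.23, 4.38, 4.54 and 4.25 with PB (0.31 ± 0.07, SE; adjusted p = 0.029). Psmd1, the large scaffold subunit of the 19S base, measured 5.25, 5.03, 5.34 and 5.09 on control diet and 5.42, 5.42, 5.70 and 5.50 with PB (0.33 ± 0.08, SE; adjusted p = 0.037). In all 3 of these genes the SD groups did not overlap and the third PB rat was the highest. Psma6 completed the 7, at 0.27 ± 0.07 (SE, adjusted p = 0.038).

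The catalytic genes of ordinary cells did not pass the test in SD rats. Psmb5, which encodes the chymotrypsin-like site, came closest: 4.19, 4.17, 4.29 and 4.25 on control diet and 4.30, 4.42, 4.50 and 4.46 with PB, with no overlap (0.19 ± 0.05, SE; adjusted p = 0.055). Psmb6, the caspase-like site, gave 0.13 ± 0.06 (SE, adjusted p = 0.28), and Psmb7, the trypsin-like site, gave 0.18 ± 0.07 (SE, adjusted p = 0.15), both with overlapping groups. By role, 3 of 8 alpha-ring genes rose, 0 of 4 structural beta-ring genes, 0 of 6 ATPases, 4 of 13 non-ATPase 19S genes and 0 of 4 activators. Apart from Psmd9 (adjusted p = 0.0041 by limma), the SD calls lay closer to the threshold, with adjusted p from 0.018 to 0.038. Fitted on the 8 SD arrays alone, 1 of the 41 was called, Psmd9, where 129 of all 17009 genes were higher and 57 lower.

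The number called also changed with single animals. Without SD control 1, 2 or 4 the count was 4, 3 and 1, without SD PB 2 or 3 it was 4 and 2, and without any other SD array it was 5 to 8. Over these 8 fits 229 to 382 of all genes were higher, and the median over the proteasome genes stayed between 0.15 and 0.24. SD PB 3 had the highest score of the 16 rat arrays on the leading component of the spread over all genes (32.9, against -17.8 to 17.6), and the part of this in the SD result was not tested.

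In CAR KO rats 0 of 41 proteasome genes passed the test for PB in either direction, where 0.0513% of all genes rose and 0.154% fell. At an unadjusted p under 0.05 there were 7 of 41, a share near that of all genes (2857 of 17551), and all alternative settings run for this test, leaving out each array in turn included, also called 0. The median log2 difference was 0.06, with a range from -0.63 for Psme4 to 0.28 for Psmb10. Psmd14 stood at -0.24, -0.13, -0.07 and 0.06 on control diet and at -0.15, 0.04, -0.09 and -0.21 with PB, so the groups overlapped (difference -0.01 ± 0.11, SE; adjusted p = 0.98). Psma1 stood at 2.70, 2.77, 2.94 and 2.84 and then 2.86, 2.78, 2.88 and 2.92 (0.05 ± 0.08, SE; adjusted p = 0.81). Psmd9 stood at 3.46, 3.62, 3.46 and 3.53 and then 3.73, 3.65, 3.85 and 3.55 (0.18 ± 0.08, SE; adjusted p = 0.26).

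The difference between the responses of CAR KO and SD rats was itself tested. It was negative for 36 of 41 genes, with a median of -0.13 (all genes -0.01), yet 0 of 41 passed the adjusted threshold in either direction, where 0.107% of all genes were higher and 0.427% lower, and 10 of 41 had an unadjusted p under 0.05 (all genes 2347 of 17812). The lowest value was that of Psmd14, at -0.52 ± 0.16 (SE, adjusted p = 0.17), and Psmd8 gave -0.33 ± 0.10 (SE, adjusted p = 0.17). The SD response of the proteasome genes is therefore not shown to differ from that of CAR KO rats.

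**Figure D2:**
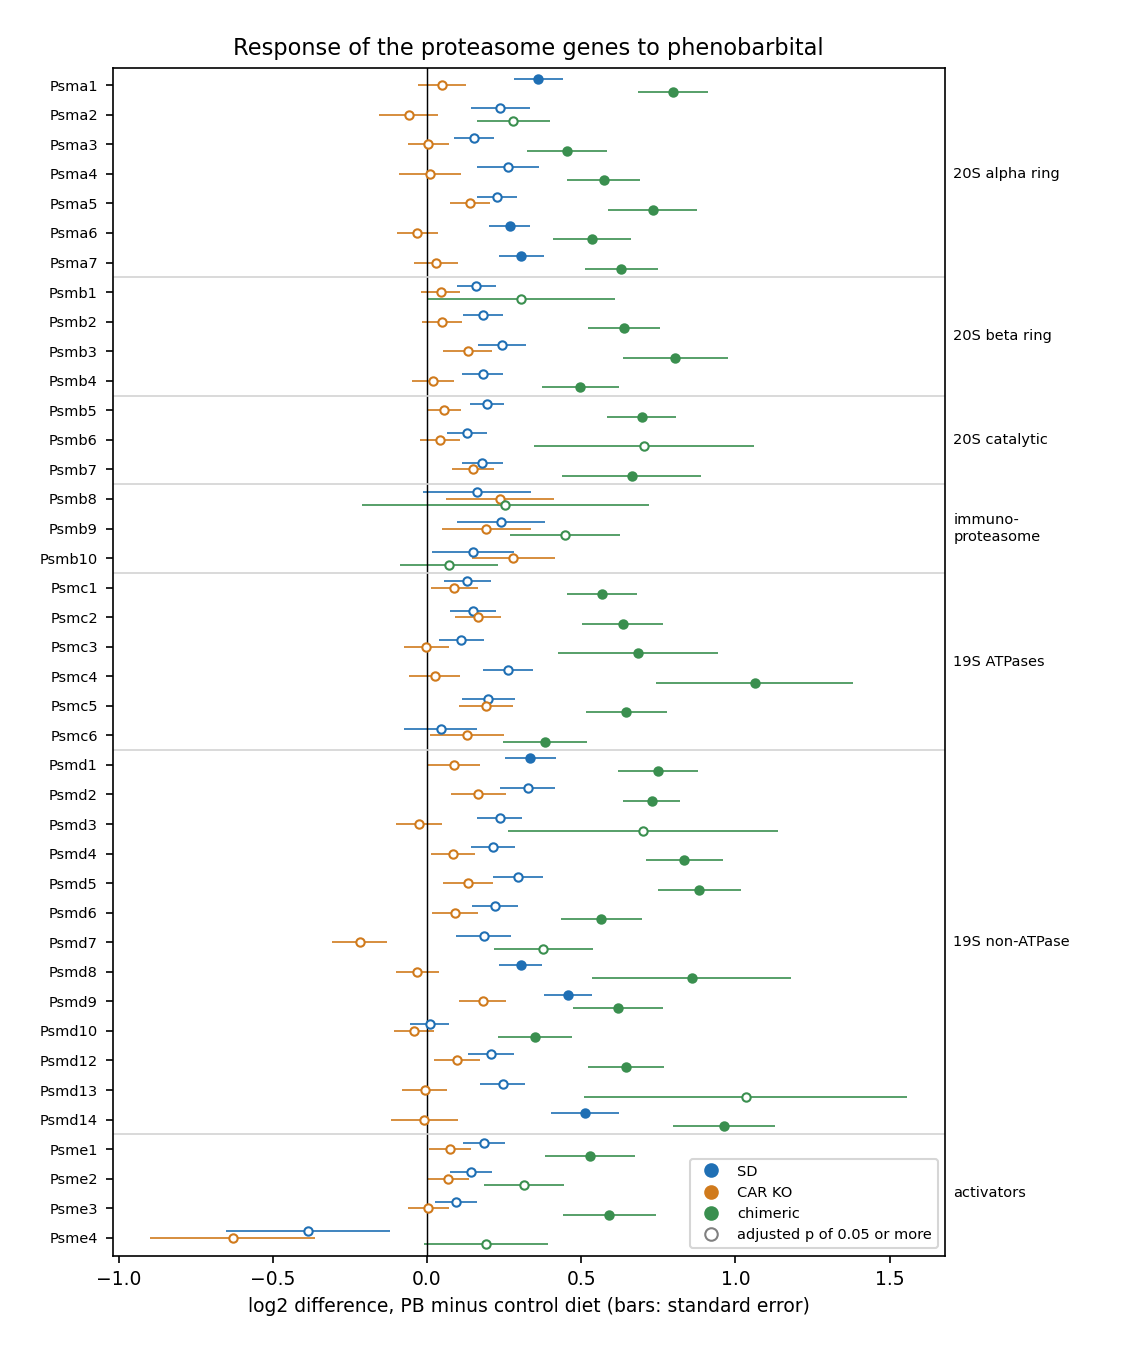
Points are the log2 difference between PB and control diet for 40 proteasome genes, ordered by role, with bars of 1 standard error and filled symbols for an adjusted p under 0.05. The chimeric values lie to the right of the SD values for 39 of the 40 genes, 29 of them filled, and the CAR KO values are all open.

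Chimeric livers had the largest median difference with PB among the 3 kinds of animal. Of the 40 proteasome genes tested (Psma8 was too dim), 29 (72.5%) rose and 0 fell, where 19.3% of all 14445 genes rose and 23.4% fell. All 40 differences were above 0, with a median of 0.63 (1.55-fold), against a median of 0.06 over all genes. All 6 ATPases rose, as did 6 of 7 alpha-ring genes, 3 of 4 structural beta-ring genes, 10 of 13 non-ATPase 19S genes, 2 of 3 catalytic genes and 2 of 4 activators. Of the immunoproteasome genes, 0 of 3 rose. For 13 of 40 every PB array was above every control array, which held for 4.98% of all genes.

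Slide touches every one of these calls. With the slide as a block, 0 of 40 were called and 0.706% of all genes rose. That fit rests on chimeric PB 1 alone, the PB array that shared the control slide, and its median standard error over the genes was 0.25. Array PB 1 was above the control mean for 36 of 40 genes and above all 7 controls for 16 of 40, where 12.6% of all genes were above all 7 controls. Its median difference from the control mean was 0.28 (all genes -0.04), against 0.69 for PB 2 to PB 7 (all genes 0.09). Chimeric control 4, on the same slide, had a median difference of 0.25, with 23 of 40 genes above all other controls. The median difference of PB 1 was thus above that of every control, though near that of control 4. Control 4 had the larger count of genes. The comparison is uneven, because control 4 is part of the control mean and was set against the other controls only. Control 4 is also among the 3 arrays that stood apart. The share of all genes was not counted for control 4, nor for PB 1 above the control mean. The part of the slide in the larger values of PB 2 to PB 7 cannot be told apart from the animals.

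Leaving out chimeric control 2, control 4 and PB 4, which stood apart, 33 of 40 rose and 0 fell, where 22% of all genes rose. The median was then 0.60. Psma2, Psmb9, Psmd3, Psmd13 and Psme2 passed the test in addition, and Psmb7 no longer did. When single chimeric arrays were left out, the count ran from 24 to 32, and 2410 to 3250 of all genes rose.

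Psmd2, the ubiquitin-receptor scaffold of the 19S base, had the smallest adjusted p. Its level ran from 4.34 (median 4.56) to 4.75 over the 7 controls and from 5.15 (median 5.27) to 5.45 over the 7 PB animals, so the lowest PB value lay above the highest control. The difference was 0.73 ± 0.09 (SE; 1.66-fold, adjusted p = 4.8e-05). Within the control slide, PB 1 exceeded the control mean by 0.62 ± 0.18 (SE, adjusted p = 0.16).

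Psmd4, the ubiquitin receptor that holds chains at the 19S base, ran from 3.06 (median 3.26) to 3.40 on control diet and from 3.48 (median 4.15) to 4.34 with PB. The lowest PB value was PB 1, and the difference was 0.83 ± 0.13 (SE; 1.78-fold, adjusted p = 0.00013). Psmd14 ran from -1.55 (median -1.07) to -0.75 on control diet and from -0.52 (median -0.22) to 0.43 with PB, without overlap (0.96 ± 0.16, SE; 1.95-fold, adjusted p = 0.00032). Psmd14 was thus among the genes called in SD rats as well as in chimeric livers.

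Psma1 ran from 2.55 (median 2.76) to 3.01 on control diet and from 3.23 (median 3.54) to 3.87 with PB (0.80 ± 0.11, SE; 1.74-fold, adjusted p = 9.1e-05). Psmd5, a chaperone of the 19S base, ran from -0.57 (median -0.32) to -0.03 and from 0.27 (median 0.49) to 1.07 (0.88 ± 0.13, SE; 1.84-fold, adjusted p = 0.00015). The groups did not overlap in either gene. Psmc4, an ATPase, had the largest difference, 1.06 ± 0.32 (SE; 2.09-fold, adjusted p = 0.014), on groups that overlapped, and it was among the 8 genes that were low on the 3 arrays that stood apart.

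**Figure D3:**
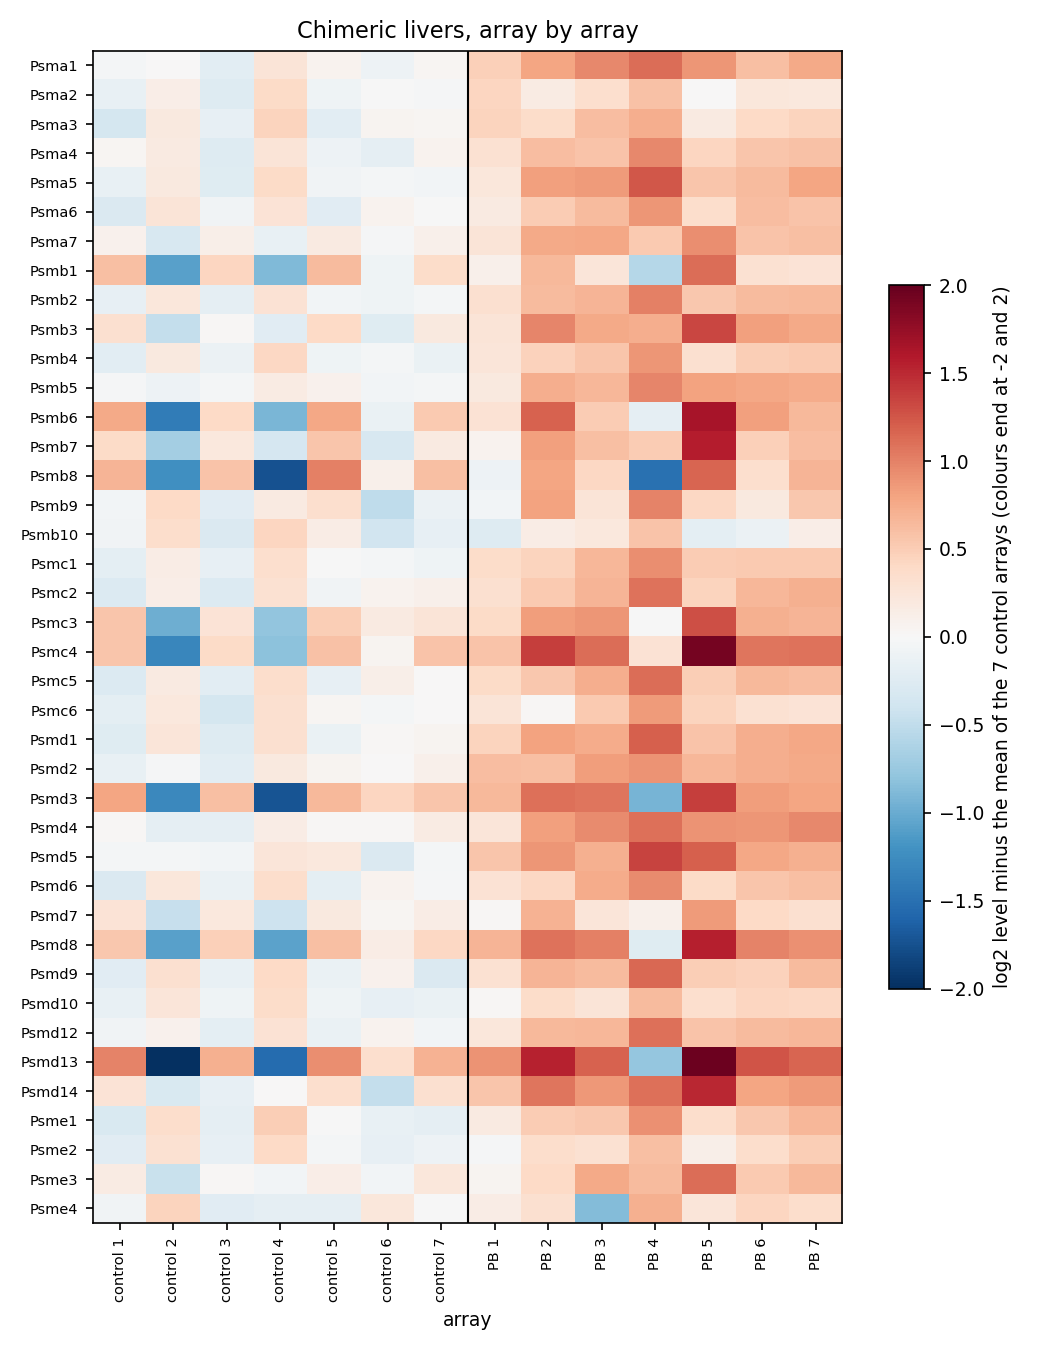
Each cell is the log2 level of a proteasome gene on 1 chimeric array minus the mean of its 7 control arrays, red for higher and blue for lower. Most rows are red on PB 2 to PB 7 and paler on PB 1, and Psmb1, Psmb6, Psmb8, Psmc3, Psmc4, Psmd3, Psmd8 and Psmd13 are lowest in their groups on control 2, control 4 and PB 4.

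Among the catalytic genes of ordinary cells, Psmb5 rose in chimeric livers. Its level ran from 4.35 (median 4.40) to 4.60 on control diet and from 4.64 (median 5.19) to 5.41 with PB, and the lowest PB value was again PB 1. The difference was 0.70 ± 0.11 (SE; 1.62-fold, adjusted p = 0.00021), and on the control slide alone it was 0.19 ± 0.16 (SE, adjusted p = 0.77). Psmb7 ran from 0.90 (median 1.76) to 2.13 and from 1.65 (median 2.18) to 3.15, with overlap (0.66 ± 0.23, SE; adjusted p = 0.027). Without the 3 arrays that stood apart, its difference was 0.49 (adjusted p = 0.11). Psmb6 ran from -0.69 (median 1.10) to 1.49 and from 0.54 (median 1.37) to 2.36, also with overlap (0.70 ± 0.36, SE; adjusted p = 0.13).

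None of the immunoproteasome genes passed the test over all 14 chimeric arrays. Psmb8 ran from -0.87 (median 1.44) to 1.87 on control diet and from -0.63 (median 1.28) to 2.02 with PB, almost the same span (0.25 ± 0.46, SE; adjusted p = 0.68), and the sign turned to -0.05 without the 3 arrays. Psmb9 ran from 2.33 (median 2.79) to 3.25 and from 2.79 (median 3.26) to 3.84 (0.45 ± 0.18, SE; adjusted p = 0.055), and it passed at 0.47 (adjusted p = 0.044) without the 3 arrays. Psmb10 ran from 3.42 (median 3.73) to 4.23 and from 3.55 (median 3.94) to 4.38 (0.07 ± 0.16, SE; adjusted p = 0.74), the smallest of the 40 differences. In these 3 genes the diets overlapped, and whether their response differs from that of the other proteasome genes was not tested. The summed level of lymphocyte markers, whose cells are rich in immunoproteasome, was lower on PB, as given above. Gzmb fell from a mean of -2.70 to -5.78 and Nkg7 stood at -2.82 and -3.40, while the other markers were above background on at most 1 array of a group, and their part here was not tested.

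The activator genes split in the same comparison. Psme1, a subunit of the interferon-inducible 11S cap, ran from 5.45 (median 5.61) to 6.25 on control diet and from 5.95 (median 6.30) to 6.67 with PB (0.53 ± 0.15, SE; adjusted p = 0.0085). Its partner Psme2 ran from 5.47 (median 5.59) to 6.08 and from 5.67 (median 6.05) to 6.29 (0.31 ± 0.13, SE; adjusted p = 0.062), which passed at 0.41 (adjusted p = 0.0084) without the 3 arrays. Psme3, a nuclear activator, rose by 0.59 ± 0.15 (SE, adjusted p = 0.0052). Psme4 gave 0.19 ± 0.20 (SE, adjusted p = 0.47) with the probe used and 0.61 ± 0.15 (SE, adjusted p = 0.0038) with its other probe, and in rats these probes gave -0.39 and -0.02 for SD and -0.63 and 0.04 for CAR KO. The size and the call for Psme4 therefore depend on the probe.

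In SD rats none of the same interferon-inducible genes passed the test. Psmb8 measured 2.79, 2.78, 2.42 and 2.46 on control diet and 3.03, 2.81, 2.47 and 2.79 with PB (0.16 ± 0.17, SE; adjusted p = 0.65). Psmb9 measured 3.24, 3.46, 2.89 and 2.87 and then 3.64, 3.27, 3.12 and 3.39 (0.24 ± 0.14, SE; adjusted p = 0.37). Psmb10 measured 3.53, 3.16, 3.31 and 2.87 and then 3.28, 3.49, 3.22 and 3.48 (0.15 ± 0.13, SE; adjusted p = 0.57). The diets overlapped for Psmb8, Psmb9 and Psmb10, and the SD over the 4 rats of a diet was 0.14 to 0.29 in these 3 genes, against 0.05 to 0.12 in Psmb5, Psmb6 and Psmb7. Psme1 and Psme2 gave 0.19 ± 0.07 (SE, adjusted p = 0.14) and 0.14 ± 0.07 (SE, adjusted p = 0.26).

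In CAR KO rats these 5 genes gave 0.24 for Psmb8, 0.19 for Psmb9, 0.28 for Psmb10, 0.07 for Psme1 and 0.07 for Psme2, with adjusted p from 0.32 to 0.66. Psmb8 there measured 2.51, 3.42, 2.90 and 3.22 on control diet and 3.32, 3.18, 3.42 and 3.08 with PB, again with overlap.

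**Figure D4:**
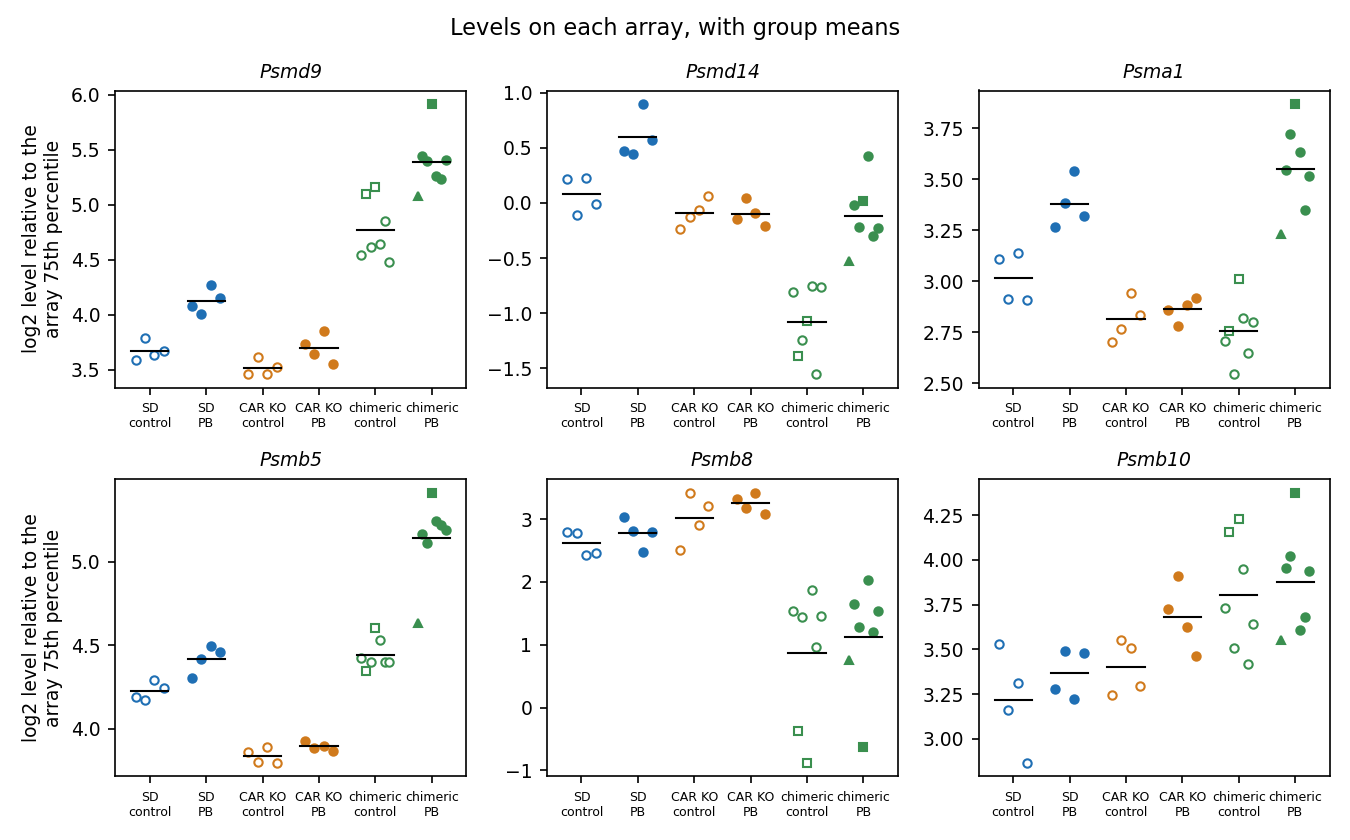
Log2 levels relative to the 75th percentile of each array are drawn for 6 proteasome genes, 1 point per array, with lines for group means, open symbols for control diet, triangles for chimeric PB 1 and squares for the 3 chimeric arrays that stood apart. Psmd14 and Psma1 separate the diets in SD and chimeric animals and overlap in CAR KO rats, Psmd9 separates them in SD rats only, and Psmb8 and Psmb10 overlap in all.

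The response of chimeric livers was larger than that of SD rats for 9 of 41 proteasome genes and smaller for 0, in a direct test of the difference over all 30 arrays, where 6.29% of all genes were higher and 12.6% lower. The 9 were Psma1, Psma5, Psmb2, Psmb5, Psmc1, Psmc2, Psmd2, Psmd4 and Psmd5. Psme4 was not called with the probe used (0.58 ± 0.34, SE), while its other probe gave 0.63 ± 0.19 (SE, adjusted p = 0.019). Psmd4 gave 0.62 ± 0.16 (SE, adjusted p = 0.0068), Psmb5 0.50 ± 0.14 (SE, adjusted p = 0.010) and Psmd5 0.59 ± 0.17 (SE, adjusted p = 0.017). Psmb2, a structural beta subunit, gave 0.46 ± 0.14 (SE, adjusted p = 0.026), Psmd2 0.40 ± 0.13 (SE, adjusted p = 0.027) and the ATPase Psmc1 0.44 ± 0.15 (SE, adjusted p = 0.035). The median over the 41 genes was 0.44, against 0.08 over all genes.

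For those last members the levels behind the difference were as follows. Psmb2 ran from 4.46 (median 4.58) to 4.93 over the chimeric controls and from 4.96 (median 5.27) to 5.64 with PB, without overlap, and its SD difference was 0.18. Psmc1 ran from 2.55 (median 2.70) to 3.08 and from 3.11 (median 3.26) to 3.68, also without overlap, and its SD difference was 0.13.

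This count was sensitive to the arrays and the scaling. Without the 3 chimeric arrays that stood apart it was 17 (all genes 11.4%). Without chimeric PB 1 it was 16 (1744 of 17258 genes higher), and without chimeric control 4 it was 14 (1423 of 17283). It fell to 5 without chimeric control 3 or PB 3, to 4 without SD control 1, SD PB 2 or SD PB 4, and to 3 without SD control 3 or SD PB 1. In the fits with these lower counts 770 to 951 of all genes were higher. Median centring, which moved the median of all genes from 0.08 to 0.35, gave 23, where 2955 of 17255 genes were higher. Fitted on these 4 groups alone the count was 3, where 603 of 17255 genes were higher. The slide holding most chimeric PB arrays carries this difference too, and the part of the slide cannot be told apart.

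Set side by side, all 7 genes called in SD rats were also called in chimeric livers, where 29 of 40 (72.5%) were called. The matching share of all genes called in SD rats was not counted. The SD and chimeric responses share no array. Across 40 proteasome genes their Pearson correlation was 0.56 and their Spearman correlation 0.57. This is a description over genes, which are not independent replicates. Between CAR KO and SD rats the Pearson correlation over 41 genes was 0.38 and the Spearman correlation 0.01. The SD difference was the larger of the 2 rat values for 36 of 41 genes.

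On control diet some of the proteasome genes were lower in CAR KO rats than in SD rats. Of 41 genes, 23 were not called, 17 (41.5%) were lower and 1, the alpha-ring gene Psma3, was higher, where 19.7% of all genes were lower and 14.4% higher. The median was -0.18, against -0.08 over all genes. It was -0.16 against -0.11 with normexp background correction, and -0.18 against -0.14 with no filter on dim probes. All 3 catalytic genes of ordinary cells were lower, as were 3 of 6 ATPases, 7 of 13 non-ATPase 19S genes, 2 of 8 alpha-ring genes, 1 of 4 structural beta-ring genes and 1 of 4 activators, and 0 of 3 immunoproteasome genes. With the 75th percentile taken over spots in place of probes, which moved the median of all genes to -0.03, 10 were lower and 2 higher. Of all 17724 genes, 2525 were then lower and 2896 higher. Psmd9 was not called with the probe used (-0.15), while its other probe gave -0.55 ± 0.08 (SE, adjusted p = 9.9e-05).

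Psmb5 was 4.19, 4.17, 4.29 and 4.25 in SD controls and 3.86, 3.80, 3.89 and 3.80 in CAR KO controls, so every CAR KO rat lay below every SD rat. The difference was -0.39 ± 0.05 (SE; 1.31-fold lower, adjusted p = 9.5e-05). Psmd4 was 3.18, 3.12, 3.29 and 3.22 in SD and 2.78, 2.76, 2.92 and 2.84 in CAR KO rats (-0.38 ± 0.07, SE; adjusted p = 0.0011). Psmb6 was 2.28, 2.06, 2.27 and 2.16 and 1.92, 1.84, 1.97 and 1.85 (-0.30 ± 0.06, SE; adjusted p = 0.0027). SD and CAR KO rats did not overlap in any of these 3 genes. Over all 41 proteasome genes the groups were fully apart for 16, of which 15 were lower and 1 higher. Of all genes, 19.9% were fully apart and lower and 14.4% fully apart and higher.

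Psma5 was 3.40, 3.27, 3.49 and 3.34 in SD and 2.9997, 3.04, 3.18 and 3.08 in CAR KO controls (-0.30 ± 0.07, SE; adjusted p = 0.0030). Psmd7, the lid partner of Psmd14, was 2.57, 2.23, 2.49 and 2.47 and 2.07, 1.96, 2.15 and 2.05 (-0.38 ± 0.09, SE; adjusted p = 0.0047). Psmc3, an ATPase, was 2.40, 2.48, 2.61 and 2.55 and 2.26, 2.24, 2.19 and 2.13 (-0.30 ± 0.07, SE; adjusted p = 0.0051). SD and CAR KO controls did not overlap in Psma5, Psmd7 or Psmc3 either. Psmb7 was also lower (-0.25 ± 0.07, SE; adjusted p = 0.010), and Psma3 was higher by 0.27 ± 0.07 (SE, adjusted p = 0.0058). Rat model and slide cannot be told apart in any of these differences, and the SD control arrays used here also serve the SD response to PB. Macrophage markers in the same rats were lower in 4 of 13 and hepatocyte markers in 6 of 12, with 0 higher in both lists. Of 11 lymphocyte markers, 2 were lower and 1 higher. Of all genes, 19.7% were lower and 14.4% higher. The part of these cell types was not tested.

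**Figure D5:**
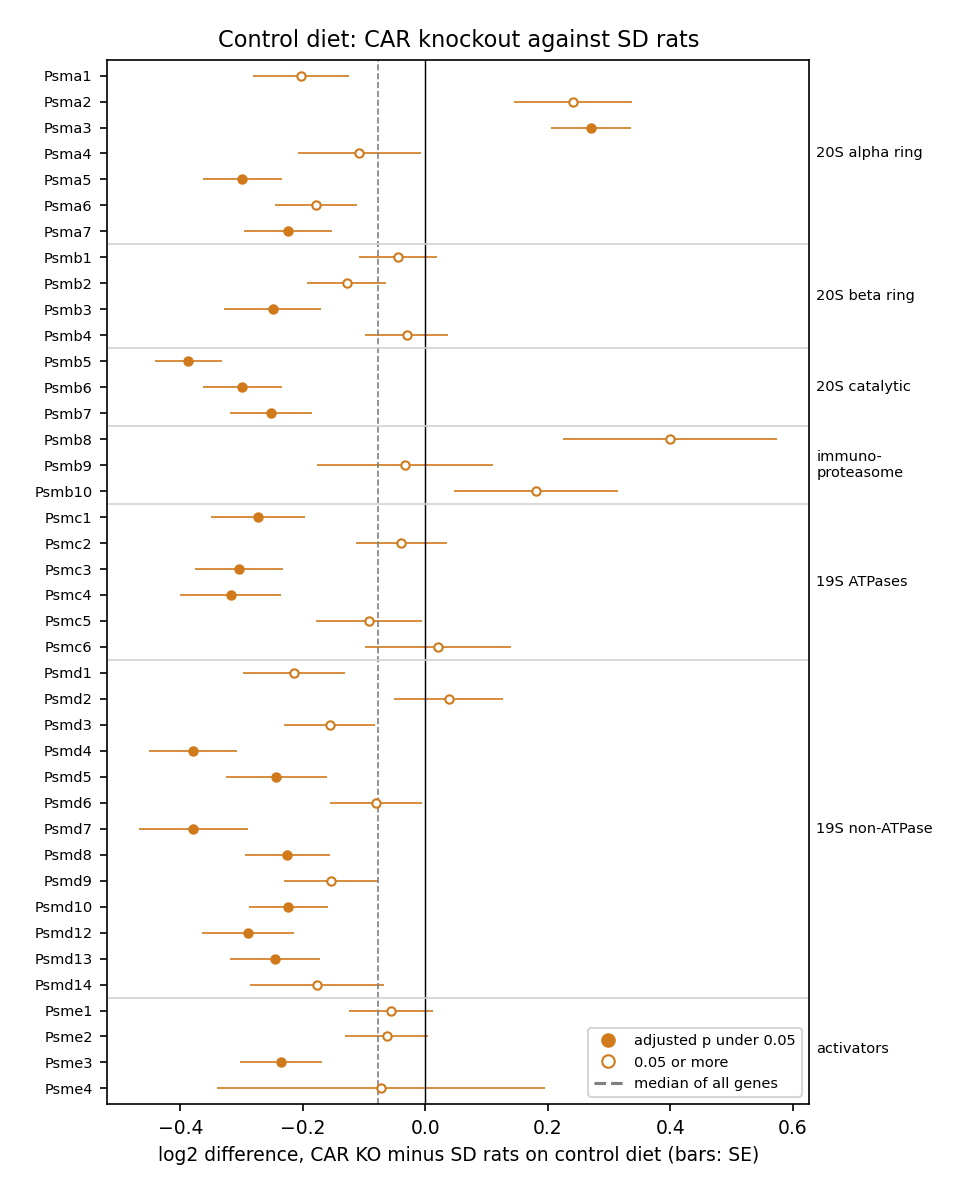
Points are the log2 difference of CAR KO minus SD rats on control diet for 40 proteasome genes by role, with bars of 1 standard error and filled symbols for an adjusted p under 0.05, and the dashed line is the median of all genes at -0.08. Filled points lie to the left of 0 for 17 genes, with Psmb5 at -0.39, and to the right for Psma3 at 0.27.

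Chimeric livers and SD rats on control diet differed in both directions. Of 41 proteasome genes, 16 were higher and 14 lower in chimeric livers, where 38.7% of all genes were higher and 35.9% lower, so the shares were near those of all genes. Under quantile normalization the split was 5 higher and 23 lower, where 6079 of 17160 genes were higher and 6119 lower. Under median centring, which moved the median of all genes from 0.04 to 0.44, it was 22 higher and 7 lower. There 8662 of 17160 genes were higher and 4033 lower. The direction of the group as a whole thus depends on the scaling. The difference ran from -1.75 for Psmb8 to 1.16 for Psmb4.

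Psmb4, a structural beta subunit, ran from 5.65 (median 5.77) to 6.27 in chimeric controls and exceeded SD controls by 1.16 ± 0.11 (SE; 2.23-fold, adjusted p = 6.3e-10). The lid subunit Psmd6 was higher by 1.07 ± 0.12 (SE, adjusted p = 8.6e-09) and the ATPase Psmc5 by 0.89 ± 0.12 (SE, adjusted p = 2.9e-07). Psme3 was lower, at -1.08 ± 0.13 (SE, adjusted p = 5.9e-08), as was Psmd14 at -1.17 ± 0.16 (SE, adjusted p = 2.2e-07). The probes of Psmd9 went opposite ways, at 1.10 ± 0.13 (SE, adjusted p = 3.3e-08) for the one used and -1.05 ± 0.24 (SE, adjusted p = 0.00030) for the other, although both rose with PB in chimeric livers, by 0.62 and 1.05.

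Genes that work with the proteasome were followed through lists of related function. Of 5 measured genes of proteasome assembly and inhibition, 1 rose with PB in SD rats (2.5% of all genes), 0 in CAR KO rats (0.0513% of all genes) and 3 in chimeric livers (19.3% of all genes). The assembly chaperone gene Psmg2 rose in SD rats (0.35 ± 0.09, SE; adjusted p = 0.038) and in chimeric livers (0.71 ± 0.13, SE; adjusted p = 0.00040), and Psmf1, an inhibitor, and Pomp, the maturation factor, rose in chimeric livers by 0.53 and 0.48. Of 8 ubiquitin receptors and proteasomal deubiquitinases, 0 changed with PB in either rat. Of all genes, 2.5% rose and 1.8% fell in SD rats, and 0.0513% rose and 0.154% fell in CAR KO rats. In chimeric livers 4 of the 8 receptors and deubiquitinases rose and 1 fell, where 19.3% of all genes rose and 23.4% fell. Among them Usp14, which trims ubiquitin chains on the 19S particle, rose by 0.99 ± 0.14 (SE, adjusted p = 0.00011), Ubqln2 rose by 0.77 and Ubqln4 fell by 0.87. With the slide as a block the value of Ubqln4 was 0.02 (adjusted p = 0.99).

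Of 10 genes for ubiquitin supply and the p97 unfoldase system, 7 rose in chimeric livers on PB (19.3% of all genes). On PB 0 rose in SD rats (2.5% of all genes) and 0 in CAR KO rats (0.0513% of all genes). On control diet 7 were lower in CAR KO than in SD rats (19.7% of all genes). Nfe2l1, which encodes the transcription factor known to raise proteasome genes when the proteasome is inhibited, ran from -0.08 to 0.44 in chimeric controls and from 0.97 to 1.37 with PB, without overlap (1.003 ± 0.11, SE; adjusted p = 1.8e-05). In SD rats its difference was 0.44 ± 0.12 (SE, adjusted p = 0.054) and in CAR KO rats -0.03 ± 0.12 (SE, adjusted p = 0.93). Ubb, a polyubiquitin gene, rose in chimeric livers by 0.55 and Nploc4, a p97 cofactor, by 0.75. On control diet Ngly1 and Uba1 differed by -0.36 and -0.31 between CAR KO and SD rats.

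Of the genes known to answer to the oxidative stress factor NRF2, 6 of 13 rose with PB in SD rats (2.5% of all genes). In CAR KO rats 0 of 14 changed, where 0.0513% of all genes rose and 0.154% fell. In chimeric livers 11 of 14 rose and 1 fell (19.3% and 23.4% of all genes). The gene that fell was Gclm, which encodes a subunit of the glutathione-synthesis enzyme, at -2.29 (adjusted p = 0.0033), and with the slide as a block its value was 1.22 (adjusted p = 0.13). Gsr, glutathione reductase, rose by 1.06 ± 0.12 (SE, adjusted p = 0.00016) in SD rats and by 1.65 ± 0.10 (SE, adjusted p = 6.9e-08) in chimeric livers, and its response in CAR KO rats was smaller than in SD rats by -0.88 ± 0.17 (SE, adjusted p = 0.031). With the slide as a block, a fit that rests on chimeric PB 1 alone, the chimeric value was 1.47 for Gsr and 1.94 for Me1. The median there was 0.94 over the 14 NRF2 genes, against -0.04 over all genes. It was 0.12 for the assembly list, 0.24 for the receptor list and 0.30 for the ubiquitin supply list.

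Genes that share immunoproteasome biology were called about as often as all genes or less in chimeric livers, where 19.3% of all genes rose and 23.4% fell. Of 9 genes of MHC class I peptide supply, 1 rose (Tapbp, by 0.89) and 2 fell in chimeric livers with PB, Lap3 (-0.73) and B2m (-0.34). In SD rats 0 of the 9 changed, where 2.5% of all genes rose and 1.8% fell. In CAR KO rats 0 of the 9 changed, where 0.0513% of all genes rose and 0.154% fell. With the slide as a block the median over these 9 was -0.12 in chimeric livers. Of the interferon-gamma responsive genes, 1 of 16 rose in SD rats (2.5% of all genes) and 2 of 13 rose and 2 fell in chimeric livers. The gene that rose in SD rats and by the most in chimeric livers was Cxcl9, a chemokine gene, at 1.61 ± 0.25 (SE, adjusted p = 0.0024) and 3.07 ± 0.14 (SE, adjusted p = 2.1e-09). With the slide as a block its chimeric value was 3.08, while the median over the 13 interferon-gamma responsive genes was 0.07.

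Of the remaining members, Psma8, the alpha subunit of testis, was near background, being well above it on 4 of 7 chimeric control arrays and 1 of 7 chimeric PB arrays. Psmc3ip, a recombination cofactor, gave 0.21 ± 0.11 (SE, adjusted p = 0.14) with PB in chimeric livers, and Psme3ip1, which binds the Psme3 protein, rose by 0.43 ± 0.16 (SE, adjusted p = 0.046). Neither passed with PB in SD or CAR KO rats. On control diet Psme3ip1 was lower in CAR KO than in SD rats (-0.30 ± 0.09, SE; adjusted p = 0.015) and lower in chimeric livers than in SD rats (-0.99 ± 0.15, SE; adjusted p = 1.6e-06).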

How the data were processed

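Per the labels, liver RNA of 30 animals was hybridised to 1-colour Agilent rat arrays. Per the file headers, Feature Extraction 10.7.3.1 produced the deposited intensity values, a background-corrected processed signal per spot. The deposited series matrix holds log2 values of the same arrays, which correlated at 1 with log2 of the processed signal, with an unknown offset, and served only as an alternative.

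The log2 signals of a probe's spots were averaged without outlier spots, and log2 of the 75th percentile over the probes of the array was subtracted. A gene was tested if, in any group compared, its probe stood well above background on 75% or more of the arrays. Differences were fitted across all genes with limma 3.58.1 in R 4.3.3, with Benjamini-Hochberg adjustment at 0.05, and 7 comparisons were made. The procedure was tested on simulated data. Rats were fitted together and chimeric arrays alone, and comparisons between them used all 30 arrays. The normexp alternative used median spot signals, with an offset of 50. The number of arrays limits the precision, and p-values measure the spread between animals of a group.

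Titles number the replicates in every group, but nothing in the labels ties same-numbered animals, and in no set of groups did every same-numbered pair deviate together (chimeric correlations from -0.234 to 0.811, above 0.1 for 4 of 7), so they were not treated as pairs. Members and gene lists were chosen with earlier results of these data known. Named with values were up to 6 members per comparison with the smallest adjusted p past 0.05, the catalytic and immunoproteasome genes and Psme1 and Psme2, and up to 3 genes of each other list; other members named were chosen after their values were seen.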

Additional observations from a re-analysis of the deposited data

Results flagged for a closer look

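The sets of arrays examined numbered 162, each a gene, or the median over the proteasome genes, in a group of 4 or 7. Of these sets, 7 had an array far from the others by Dixon's criterion, where chance gives about 1 in 20. Psma7 stood at 4.21 on SD control 3, against 3.97 to 4.01 on the other controls. Array SD PB 3 was high for Psmd4 (3.64, against 3.33 to 3.35), for Psmb6 (2.42, against 2.28 to 2.30) and for Psmc1 (2.89, against 2.60 to 2.61). Chimeric PB 1, the PB array on the control slide, was low for Psmb5 (4.64, against 5.11 to 5.41) and for Psmd4 (3.48, against 4.06 to 4.34). Psme3 stood at -1.35 on CAR KO control 2, against -1.25 on each of the others.

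The response to PB was larger in chimeric livers than in SD rats for 9 of 41 proteasome genes by limma. Of all genes, 6.29% were higher and 12.6% lower. The differences were 0.44 for Psma1 (adjusted p = 0.036), 0.50 for Psma5 (adjusted p = 0.049), 0.46 for Psmb2 (adjusted p = 0.026), 0.50 for Psmb5 (adjusted p = 0.010) and 0.44 for Psmc1 (adjusted p = 0.035). They were 0.49 for Psmc2 (adjusted p = 0.040), 0.40 for Psmd2 (adjusted p = 0.027), 0.62 for Psmd4 (adjusted p = 0.0068) and 0.59 for Psmd5 (adjusted p = 0.017). Fitted on only the groups compared, the count was 3, where 603 of 17255 genes were higher. Most chimeric PB arrays lay on a slide apart from the controls, and the part of the slide cannot be told apart.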

How the results depend on the processing

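Counts of proteasome genes called by limma changed with the processing. In the SD response 7 were called, where 426 of all 17009 genes were higher. Median centring gave 3 (377 of all genes higher), the percentile over spots 11 (458) and a trended and robust spread 11 (500). No filter on dim probes gave 11, where 2934 of 26912 genes were higher. A fit of only the groups compared gave 1 (129 of all genes), and leaving out single arrays 1 to 8 (229 to 382). For PB in CAR KO rats, 0 were called under every setting run. For CAR KO minus SD on control diet, 2 were higher under quantile normalization, where 2614 of 17724 genes were higher. The percentile over spots gave 2 higher and 10 lower, where 2896 and 2525 of all genes were. Leaving out single arrays gave 1 to 2 higher (2197 to 2463 of all genes). For the chimeric response the slide block gave 0 in place of 29, with a standard error that rests on 1 array. For chimeric minus SD on control diet, quantile normalization gave 5 higher and 23 lower, where 6079 and 6119 of 17160 genes were. Median centring gave 7 lower, where 4033 of all genes were lower. For chimeric minus SD response 9 were called, where 1085 of all 17255 genes were higher. Median centring gave 23 (2955 of all genes higher), array weights 25 (3479) and the percentile over spots 4 (734). No filter gave 5, where 926 of 26912 genes were higher. Only the groups compared gave 3 (603 of all genes), the 3 arrays left out 17 (1972), and leaving out single arrays 3 to 16 (763 to 1744). The median of the 41 genes minus that of all genes in CAR KO minus SD on control diet was -0.10, and it was -0.04 with normexp and -0.04 with no filter. The cause of these shifts was not tested.

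Among the proteasome genes followed under every setting, signs turned in the chimeric response for 4 that had not passed the test. Psmb8 became -0.0403 with array weights, -0.11 with the slide block, -0.0487 without the 3 arrays and -0.0354 without control 4. Psmb10 became -0.0308 under quantile normalization, -0.0413 with the percentile over spots and -0.25 with the slide block. Psmb9 became -0.0546 and Psme2 -0.0197 with the slide block. In the other lists, 4 genes that had passed turned sign with the slide block, namely Gclm (-2.29 to 1.22), Ubqln4 (-0.87 to 0.02), Mx1 (-0.70 to 0.21) and Ngly1 (0.46 to -0.21), and none of the 4 passed there. With the replicate number as a block, the counts were 7 for SD, 0 for CAR KO, 32 for chimeric and 11 for chimeric minus SD response. Of all genes, 325, 6, 3420 and 1256 were higher in these fits. No count of proteasome genes moved by over 1.5 times. The slide could not be used as a block in rats, where each model lay on a slide of its own. The percentile over spots, the trended spread and leaving out the 3 arrays were chosen after seeing the data. Dim probes limit Psma8.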
